A study of Chlorocebus sabaeus with 12 samples.

Results

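The response of COS-1 cells to chenodeoxycholic acid (CDCA) was compared between cells that carried either of 2 mutants of the human bile acid receptor FXR, as a difference of differences. For each gene, the change from DMSO to CDCA with the S154A mutant was subtracted from the change from DMSO to CDCA with the S154D mutant. All 12 arrays of the series enter this comparison, chosen by their titles, with 3 arrays in each of 4 groups. COS-1 is a kidney cell line of the African green monkey. The groups were S154A_DMSO, S154A_CDCA, S154D_DMSO and S154D_CDCA: every group was transiently transfected with a human FXR mutant for 24 h and then held for 24 h in medium with 0.1% DMSO or with CDCA, whose dose the labels write as 50 mM. No array held wild-type FXR or cells without a transfected receptor, so a change with S154A or S154D cannot be set against that of the unmutated receptor. The labels do not state that replicates were grown as separate cultures, and p-values then measure the spread between these arrays, which may be technical.

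FXR, the product of NR1H4, is a nuclear receptor that binds bile acids and, paired with RXR, turns on genes that move bile acids out of cells and curb their synthesis. CDCA is a strong natural ligand. Serine can carry a phosphate. Alanine in its place cannot, and aspartate has a negative charge that is often used to imitate a phosphate, so the comparison asks whether the response to the ligand depends on the residue at that position. Textbook FXR targets in liver and intestine include the bile acid-binding protein FABP6, the hormone FGF19 and both subunits of the exporter OSTalpha and OSTbeta.

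RNA was hybridised, in 1 colour, to Agilent arrays with human 60-base probes, so the signal of a probe also rests on its fit to the monkey sequence. Levels are given as log2 of the processed signal over the 75th percentile of the same array, and a difference of 1 on this scale is 2-fold. Between 61.6% and 79.8% of spots were well above background, arrays correlated at 0.972 to 0.9944, and 20356 genes were tested, each through its brightest usable probe. Of the 9 markers of kidney and mesenchymal lines, 8 were above background on all 12 arrays, with a summed level between 499 and 641 times the 75th percentile. Summed hepatocyte markers stayed between 3.31 and 4.89, leukocyte markers between 0.839 and 1.13, intestinal markers between 0.311 and 0.607, and adipocyte markers between 0.308 and 0.675. Some of these were also above background on all 12 arrays: 5 of 9 hepatocyte, 4 of 7 leukocyte, 2 of 6 intestinal and 1 of 3 adipocyte markers. FABP2 of the intestinal list was above background on no array. By the names of the scanner files there were 4 slides. All 4 groups were present on slide 3. Slide 1 lacked S154D_CDCA, slide 2 carried S154A_DMSO 2 together with S154D_CDCA 1 and S154D_CDCA 3, and S154A_CDCA 2 and S154D_DMSO 2 were on slide 4, which had another scan day. All 3 S154A_DMSO arrays lay at position 1 of their slide and no other group did, so that position and that group cannot be told apart.

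In the difference of responses, limma called 30 of 20356 genes (0.147%) at a Benjamini-Hochberg adjusted p under 0.05. With S154D, 21 (0.103%) were lower and 9 (0.0442%) higher than with S154A, and 29 of the 30 differed at least 2-fold. The 21 had a median difference of -1.51, made of a median response of 1.14 with S154A and -0.24 with S154D. The 9 had a median difference of 1.62, from -0.60 with S154A and 0.96 with S154D. Over all genes tested the median difference was 0.04, and 53.3% lay above 0. Many genes lay close to the threshold: the smallest adjusted p was 0.0209, another 46 genes had an adjusted p from 0.05 to 0.06, and 4560 (22.4%) had an unadjusted p under 0.05, 7.3% lower and 15.1% higher. By the same threshold limma called 0.133% of genes in the S154A response, 10.2% in the S154D response and 0.403% between the mutants in CDCA. These comparisons share arrays with the difference of responses, and their values are given beside it gene by gene.

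The count of calls depended on single arrays and on slide. It fell to 0 with slide as a fixed block, without slide 4, and without S154A_DMSO 3, S154A_CDCA 2, S154A_CDCA 3, S154D_DMSO 1, S154D_CDCA 2 or S154D_CDCA 3. It was 1 without S154A_DMSO 1, 2 without S154A_DMSO 2, 6 without S154D_DMSO 2, 4 without S154D_DMSO 3, 14 without S154D_CDCA 1, 6 without slide 2 and 67 without S154A_CDCA 1. Fewer arrays leave fewer degrees of freedom in each of these fits. The direction was steadier than the call: all 30 kept their sign with slide as a block, within slide 3 and with any 1 array left out. These fits reuse the arrays that chose the 30 genes, so the kept signs add no separate evidence.

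**Figure D1:**
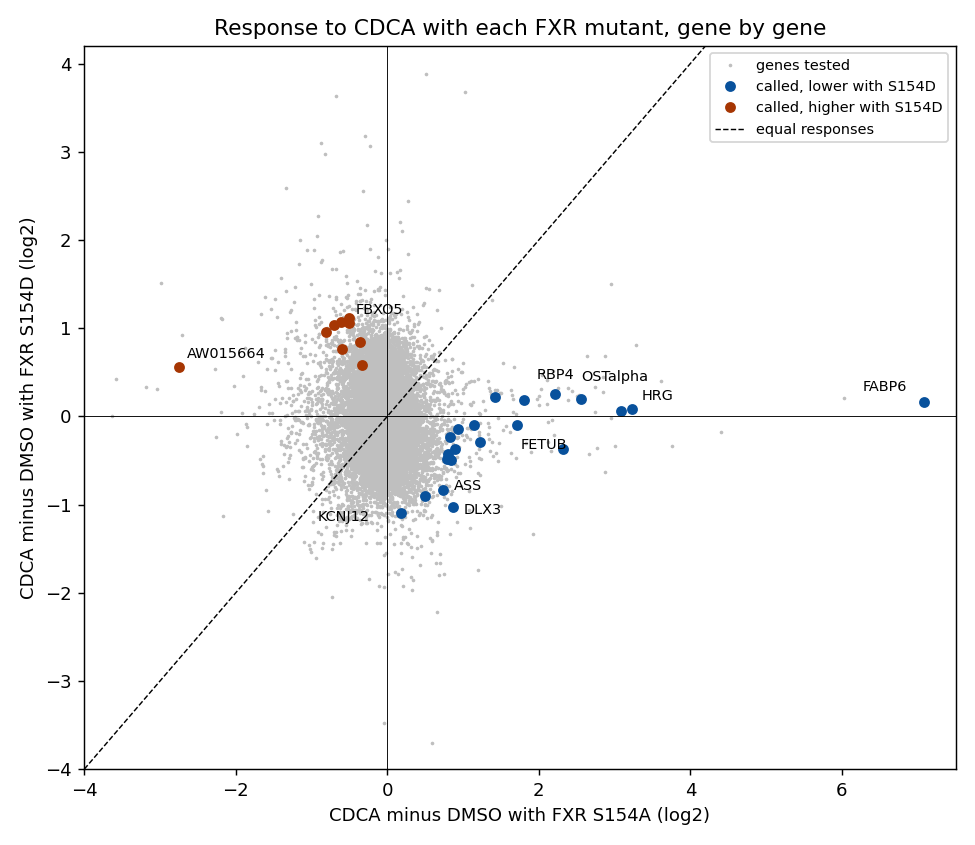
Each grey point is 1 of the 20356 genes tested, with its log2 change from DMSO to CDCA with S154A on the horizontal axis and with S154D on the vertical axis, and the dashed line marks equal responses. Blue points are the 21 genes called lower with S154D, all to the right of 0 and below the dashed line, and orange points are the 9 called higher, which lie to the left and above it.

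Genes that bind or export bile acids are described first. FABP6, the ileal cytosolic bile acid-binding protein, had the largest fitted difference of the 30 called genes. It was read by a probe whose hg17 coordinates, chr5:159591816-159594421, span more than the probe's 60 bases. The probes that carried the results for FABP6 and OSTalpha are shown because the values rest on these 60 bases each.
FABP6: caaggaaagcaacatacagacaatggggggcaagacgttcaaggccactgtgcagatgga
OSTalpha: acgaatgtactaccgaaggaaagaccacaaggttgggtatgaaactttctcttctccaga
The FABP6 level was -3.48, -4.89 and -5.31 in S154A_DMSO, 2.58, 2.53 and 2.45 in S154A_CDCA, -6.16, -6.00 and -6.29 in S154D_DMSO, and -4.75, -6.02 and -7.20 in S154D_CDCA. The 3 S154A_CDCA arrays stood far above the other 9, which include all 3 S154D arrays with the same ligand. The difference of responses was -6.92 ± 0.80 (SE, 95% interval -8.70 to -5.14, limma adjusted p = 0.0209). With S154D the response itself was 0.16 ± 0.57, and its interval of -1.10 to 1.42 held 0. With S154D it cleared background on 1 of 3 DMSO arrays and 2 of 3 CDCA arrays, so those levels lie at the edge of detection and the size of the fitted difference is uncertain.

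OSTalpha, at chr3:197448296-197448355, pairs with OSTbeta to export bile acids across the basolateral membrane. Its level was 0.46, 0.76 and 0.23 in S154A_DMSO, 3.17, 3.01 and 2.92 in S154A_CDCA, 0.49, 0.66 and 0.25 in S154D_DMSO, and 0.96, 0.53 and 0.49 in S154D_CDCA. In this gene every array was well above background, and S154A_CDCA alone stood apart. The difference was -2.36 ± 0.25 (limma adjusted p = 0.0209), with a response of 2.55 ± 0.18 with S154A and of 0.19 ± 0.18 with S154D. A dimmer probe for the same gene gave -1.83 ± 0.37. With all kept probes tested one by one, that probe did not pass (limma adjusted p = 0.0621). Within slide 3, where each group had 1 array, the difference was -2.67 for OSTalpha and -7.62 for FABP6.

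OSTbeta, the partner subunit, had levels of -5.24, -7.52 and -7.37 in S154A_DMSO, -5.26, -4.68 and -5.09 in S154A_CDCA, -6.60, -6.81 and -7.58 in S154D_DMSO, and -5.66, -7.04 and -8.21 in S154D_CDCA. S154A_DMSO 1 overlapped the S154A_CDCA arrays. Its difference was -1.67 ± 0.98 and did not pass (limma adjusted p = 0.338). It was well above background on 5 of 12 arrays, 3 of them S154A_CDCA, and passed the filter on dim probes only through that group.

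FGF19, the intestinal hormone that restrains hepatic production of bile acids, was at -1.22, -1.31 and -0.91 in S154A_CDCA. It lay between -7.64 and -6.32 in S154A_DMSO, between -7.81 and -6.06 in S154D_DMSO, and between -8.26 and -4.92 in S154D_CDCA. The S154A_CDCA arrays did not overlap the others, yet the difference of -5.83 ± 1.08 did not pass (limma adjusted p = 0.0623), with S154D well above background on 1 of 3 arrays in each treatment. With S154A it was not well above background on any DMSO array, and CDCA was at least 23.9-fold higher. Both FGF19 probes passed the filter only through S154A_CDCA. The second was well above background on those 3 arrays and on 0 of the other 9, so its fitted values give no exact size and are not used. With all kept probes tested one by one, the second probe passed (limma adjusted p = 0.0037) and the first did not (limma adjusted p = 0.0596). Neither test is independent of the filter.

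NR1H4, the receptor itself, had levels between 7.46 and 7.95 on all 12 arrays, which overlapped between every pair of groups. Its difference of responses was -0.06 ± 0.21 (limma adjusted p = 0.886). The probe does not tell the mutants apart, and in bulk RNA fewer responding cells and less RNA per cell cannot be told apart. NR0B2, a corepressor, ABCB11, the canalicular bile salt pump, and CYP7A1, which catalyses the rate-limiting step towards bile acids, cleared background on 2, 1 and 0 arrays and were left untested.

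**Figure D2:**
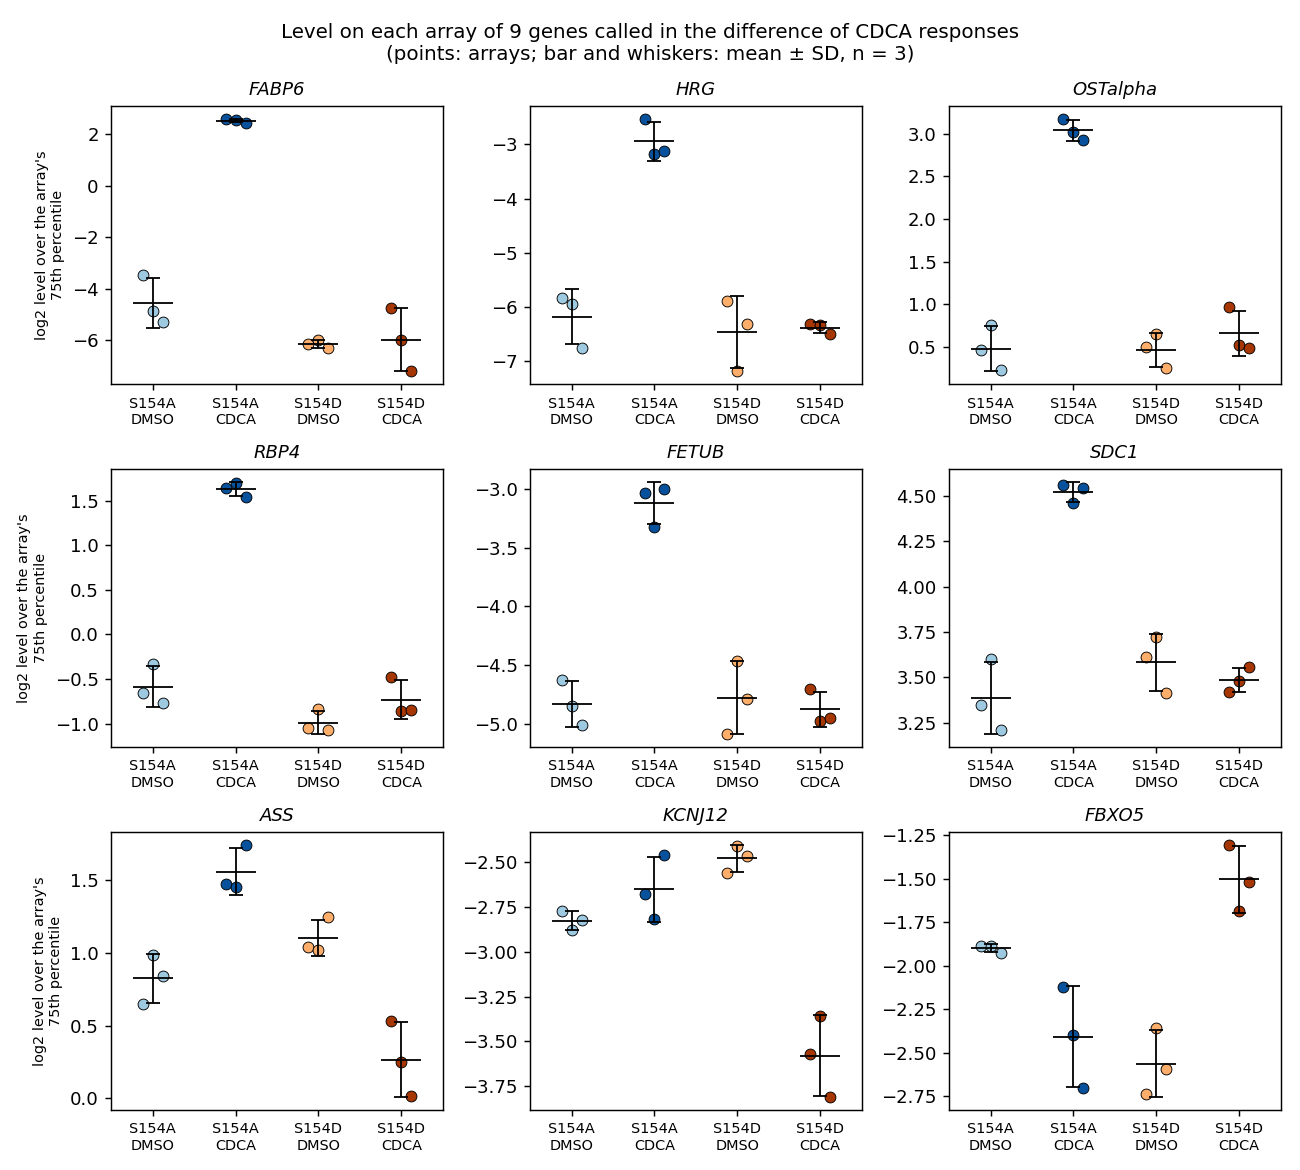
Level of 9 called genes on each array (log2 over the array's 75th percentile) by group, with points for arrays and bars for mean ± SD (n = 3). FABP6, HRG, OSTalpha, RBP4, FETUB and SDC1 were high in S154A_CDCA alone. ASS was highest in S154A_CDCA and lowest in S154D_CDCA, KCNJ12 was low in S154D_CDCA, and FBXO5 was high in S154D_CDCA.

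RBP4, FETUB and HRG, all secreted plasma proteins, formed the next group, and S154A_CDCA was the group that stood apart in each. RBP4, the carrier of retinol in blood, was at -0.66, -0.33 and -0.76 in S154A_DMSO, 1.64, 1.70 and 1.54 in S154A_CDCA, -1.05, -0.84 and -1.07 in S154D_DMSO, and -0.48, -0.86 and -0.84 in S154D_CDCA. Every array was well above background, and the S154A_CDCA arrays did not overlap any others. The difference was -1.95 ± 0.21 (limma adjusted p = 0.0209).

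FETUB, or fetuin-B, a cystatin-family protein, gave -4.62, -4.84 and -5.01 in S154A_DMSO, -3.04, -3.32 and -3.00 in S154A_CDCA, -5.08, -4.46 and -4.79 in S154D_DMSO, and -4.70, -4.97 and -4.95 in S154D_CDCA. The 3 ligand-treated S154A arrays were above the other 9. Its difference was -1.80 ± 0.24 (limma adjusted p = 0.036). HRG, a histidine-rich plasma glycoprotein, gave -2.53, -3.18 and -3.12 in S154A_CDCA and between -7.18 and -5.83 on the other 9 arrays, of which 2 were well above background. No S154D_CDCA array was well above background, and with CDCA HRG was at least 9.78-fold lower with S154D than with S154A. The fitted difference of responses was -3.15 ± 0.47 (limma adjusted p = 0.0462). HRG passed the filter on dim probes only through S154A_CDCA, the group where it was high, so this test is not independent of the filter and the fitted value is not an exact size.

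FETUB and HRG are neighbours on human chromosome 3, with probes at chr3:187853220-187853279 and chr3:187878616-187878675, 25337 bases apart. Other probes within 100000 bases of FETUB or HRG were read to see whether the neighbourhood moved. DNAJB11, an endoplasmic reticulum chaperone, had a difference of 0.05 ± 0.18, and the 2 probes of AHSG, fetuin-A, had -0.08 ± 0.41 and 0.48 ± 0.72. Both probes of KNG1, kininogen, were too dim to test.

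SDC1, the cell-surface proteoglycan syndecan-1, had a bright probe with levels of 3.35, 3.60 and 3.21 in S154A_DMSO, 4.56, 4.46 and 4.55 in S154A_CDCA, 3.61, 3.72 and 3.41 in S154D_DMSO, and 3.42, 3.48 and 3.56 in S154D_CDCA. The S154A_CDCA arrays were again higher than all others. The difference was -1.23 ± 0.17 (limma adjusted p = 0.0372), and a second probe gave -1.79 ± 0.19.

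Further genes had the same shape. MYOM2, a sarcomeric M-band protein, differed by -1.62 ± 0.22, SAMD11 by -1.51 ± 0.20, BAIAP2L2, a membrane-bending protein, by -1.20 ± 0.14 and PPP1R1A, an inhibitor of protein phosphatase 1, by -1.07 ± 0.14, all with an adjusted p of at most 0.036 by limma. A second PPP1R1A probe gave -0.57 ± 0.39 and did not pass (limma adjusted p = 0.411). LOC388242 differed by -2.68 ± 0.42 (limma adjusted p = 0.0465). For 20 of the 21 genes called lower, all but KCNJ12, the S154A_CDCA arrays lay above all other 9, against 0.796% of all genes. For 21 of 21 they lay above the S154D_CDCA arrays, against 7.63%. Those counts describe the arrays that chose these genes and add no separate evidence.

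Features without a gene symbol were called lower too, among them ENST00000294485, a predicted transcript at -1.07 ± 0.17 (limma adjusted p = 0.0499). A_32_P232437, at chr10:134785507-134785566 on the minus strand, was at -1.41, -1.55 and -1.46 in S154A_CDCA and between -5.80 and -4.30 on the other 9 arrays, a difference of -3.02 ± 0.35 (limma adjusted p = 0.0209). It is shown because no gene name goes with it.
A_32_P232437: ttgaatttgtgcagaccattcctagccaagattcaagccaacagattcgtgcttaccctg
Its S154A_CDCA arrays did not overlap the others, and its response was 3.09 with S154A and 0.06 with S154D.

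In ASS, KCNJ12, TMEM142B and DLX3 the S154D response was itself called, downwards. ASS, argininosuccinate synthase of the urea cycle, was read at chr9:130371674-130371733.
ASS: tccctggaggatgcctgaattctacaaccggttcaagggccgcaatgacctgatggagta
The ASS level was 0.65, 0.98 and 0.84 in S154A_DMSO, 1.48, 1.45 and 1.74 in S154A_CDCA, 1.04, 1.02 and 1.24 in S154D_DMSO, and 0.54, 0.25 and 0.02 in S154D_CDCA. The highest arrays were S154A_CDCA and the lowest S154D_CDCA, with no overlap between them and the DMSO arrays. The difference was -1.57 ± 0.22 (limma adjusted p = 0.036), with responses of 0.73 ± 0.15 with S154A (adjusted p = 0.214) and -0.84 ± 0.15 with S154D (adjusted p = 0.0274), by limma.

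KCNJ12, an inward-rectifier potassium channel, was the member whose S154A response held 0, at 0.18 ± 0.13. It fell by 1.10 ± 0.13 with S154D (limma adjusted p = 0.0271), and the difference was -1.27 ± 0.19 (limma adjusted p = 0.0433). TMEM142B, a calcium channel protein of the ORAI family, differed by -1.41 ± 0.22 (limma adjusted p = 0.0499). Its other probes gave -1.36 ± 0.28 and -0.96 ± 0.23, and neither passed (limma adjusted p of 0.0676 and 0.0794). DLX3, a homeobox factor, differed by -1.89 ± 0.25 (limma adjusted p = 0.036). Its second probe gave 1.16 ± 0.50, in the opposite direction, and both probes were well above background on 8 of 12 arrays, so the direction for DLX3 is uncertain.

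**Figure D3:**
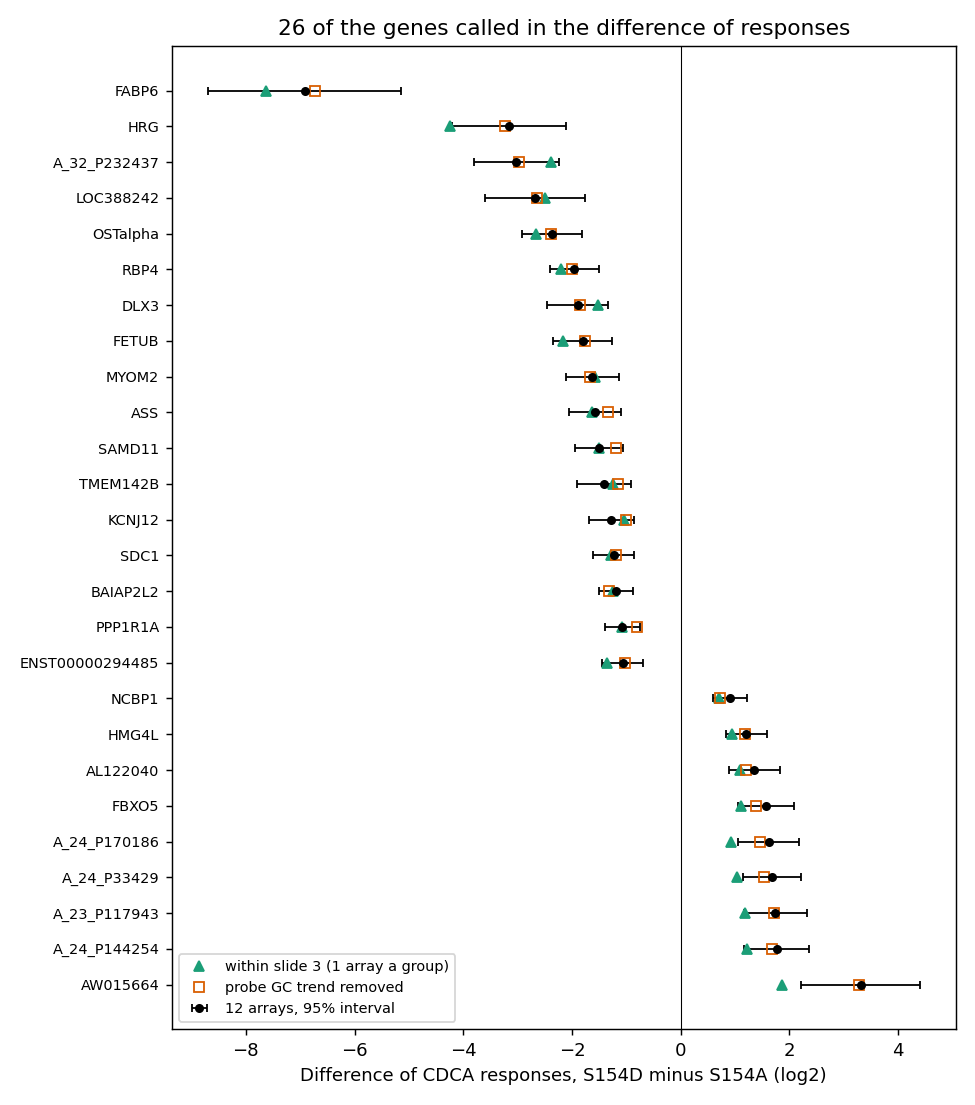
Difference of CDCA responses (S154D minus S154A, log2) for 26 of the 30 called genes, with black points and 95% intervals from all 12 arrays, green triangles from slide 3 alone and open squares after removal of each array's trend on probe GC content. All 3 values share a sign for each gene drawn, and FABP6 lies farthest out at -6.92.

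Of the 9 genes called higher with S154D, 3 carry a symbol. FBXO5, which inhibits the anaphase-promoting complex, was at -1.88, -1.88 and -1.92 in S154A_DMSO, -2.12, -2.40 and -2.70 in S154A_CDCA, -2.74, -2.36 and -2.59 in S154D_DMSO, and -1.30, -1.69 and -1.52 in S154D_CDCA. S154D_CDCA was the highest group, while S154A_CDCA and S154D_DMSO overlapped below S154A_DMSO. The difference was 1.57 ± 0.23 (limma adjusted p = 0.0427), of which -0.51 ± 0.16 was the S154A response and 1.06 ± 0.16 the S154D response. NCBP1, a subunit of the nuclear cap-binding complex, differed by 0.91 ± 0.14 and HMG4L by 1.21 ± 0.17, with limma adjusted p of 0.0465 and 0.0404.

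Among the 9, the largest fitted value was that of AW015664, an expressed sequence without a symbol, at 3.31 ± 0.49 (limma adjusted p = 0.0449). Its level was -4.06, -4.35 and -5.12 in S154A_DMSO, -7.04, -7.07 and -7.65 in S154A_CDCA, -6.07, -6.37 and -5.21 in S154D_DMSO, and -5.01, -5.28 and -5.67 in S154D_CDCA. No S154A_CDCA array was well above background, so with S154A it was at least 2.73-fold lower in CDCA than in DMSO, and the fitted difference is not an exact size. The other 5 without a symbol were AL122040 and 4 probes, with differences between 1.36 and 1.77. Among symbols that did not pass, the 10 with the smallest p in this direction shared a limma adjusted p of 0.0525. They included SENP6, a SUMO protease, at 1.55 ± 0.26, RPS12, a ribosomal protein, at 1.16 ± 0.20, TBP, the TATA-binding protein, at 1.05 ± 0.18, and the mitochondrial proteins MTO1 at 1.27 ± 0.21 and MRPL44 at 1.13 ± 0.19.

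For all 9 the 95% interval of S154D minus S154A in DMSO lay below 0, with a median of -0.59, although limma called 0 genes (0%) in DMSO. That interval also lay below 0 for 4 of the 21 called lower, and its share over all genes was not counted. The difference of responses is the gap between mutants in CDCA, with a median of 1.05 here, minus that gap in DMSO, so the DMSO levels enter it. A gap below 0 in DMSO raises the difference that chose these 9, so that count adds no separate evidence. S154D_CDCA lay above S154A_CDCA on all arrays for these 9, as it did for 20.9% of all genes. Their probes had a median GC content of 36.7%, against 45% over all genes and among the 21 called lower.

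Probe GC content moved with the difference of responses across the whole array. Across 20356 genes, which are not independent, Spearman's rho with probe GC content was -0.40 for the difference, -0.11 for the S154A response and -0.56 for the S154D response. Median differences ran from 0.52 for 235 genes with probes under 30% GC to -0.34 for 466 genes over 65%. After removal of each array's own trend, 10 genes were called, all lower, and 9 of them were among the 30. FABP6 then stood at -6.72, OSTalpha at -2.38 and FETUB at -1.76, all still called. The 9 genes higher with S154D stood between 0.72 and 3.29, none of them called. Genes lower with S154D lost their call too. Among them were HRG and SDC1 (both at a limma adjusted p of 0.0526), SAMD11 and ENST00000294485 (both 0.0606) and LOC388242 (0.0609). KCNJ12 (limma adjusted p = 0.13), TMEM142B and PPP1R1A (both 0.17) were also among them.

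**Figure D4:**
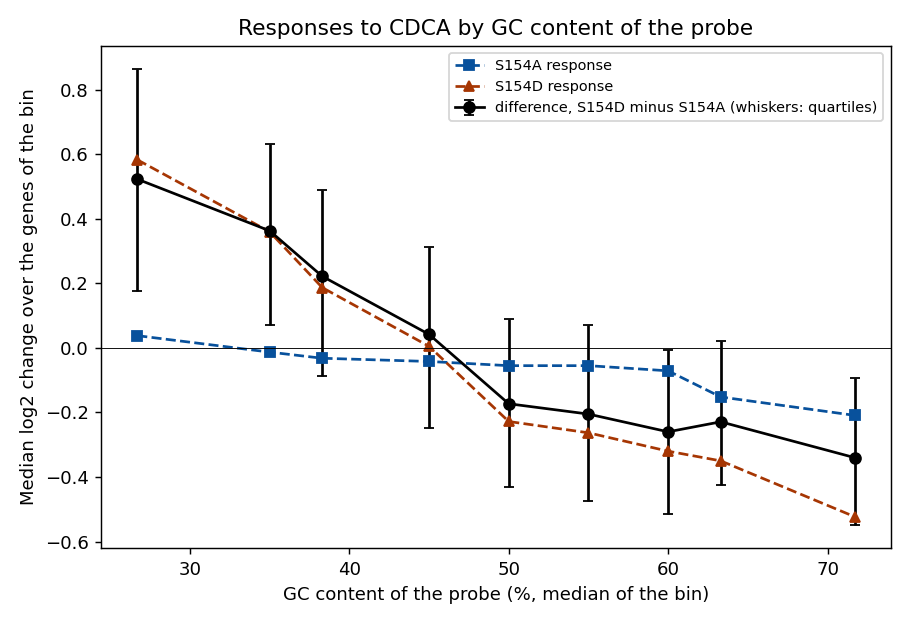
Median log2 change over the genes of each bin of probe GC content (horizontal axis, percent) for the S154A response, the S154D response and their difference, with whiskers for the quartiles of the difference. The S154D line runs from 0.58 to -0.52, and the S154A line from 0.04 to -0.21.

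Lists of genes are described by their members' counts. Over all 20356 genes, 0.103% were called lower, 0.0442% higher, 53.3% lay above 0, 22.4% had an unadjusted p under 0.05 and the median was 0.04, and each list stands beside these values. Among 25 FXR targets tested, FABP6, OSTalpha, FETUB and SDC1 were called lower (4) and 0 higher, with a median of 0.00, and 12 of 25 lay above 0. At an unadjusted p under 0.05 there were 9 of 25 (36%), 7 of them lower. The difference reached 2-fold for 6 of 25, against 1315 of 20356 over all genes. FGF19, among the 7 and the 6, and OSTbeta, among the 6, passed the filter on dim probes only through S154A_CDCA. These counts are thus not independent of the filter. Of the members not called, FGF19 (-5.83 ± 1.08) and OSTbeta (-1.67 ± 0.98) had the largest differences, while APOE had -0.61 ± 0.23, PLTP -0.51 ± 0.21, LPL 0.59 ± 0.24 and CYP3A4 0.53 ± 0.23. Among 18 plasma proteins and retinoid carriers 3 were called lower (RBP4, FETUB and HRG) and 0 higher, with a median of 0.11. The call of HRG, tested only through S154A_CDCA, is not independent of the filter. APOH, beta-2-glycoprotein, stood at 0.66 ± 0.21 and CRABP2, a retinoic acid-binding protein, at 0.60 ± 0.24, neither called. Of 4 tested members of the list of fatty acid binding proteins, which also held DBI, FABP6 alone was called. FABP3, FABP5 and DBI stood at -0.34 ± 0.17, 0.20 ± 0.21 and -0.04 ± 0.16. Of 10 syndecans and glypicans 1 was called (SDC1). SDC3 stood at -1.32 ± 0.35 and SDC4 at -0.84 ± 0.24, and neither passed.

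Enzymes that make bile acids did not pass in either direction. Of 10 tested, 0 were called and 7 lay above 0, with a median of 0.20 that stayed between 0.10 and 0.48 over the alternatives, and ACOX2, a peroxisomal side-chain oxidase, had 0.65 ± 0.19. Among 32 cell cycle genes FBXO5 alone was called, and 23 lay above 0 (median 0.11, between 0.04 and 0.39 over the alternatives). CCNB1, cyclin B1, had 0.80 ± 0.16 and CDC20, an activator of the anaphase-promoting complex, -0.68 ± 0.15, with limma adjusted p of 0.0642 and 0.0732. Of 22 interferon-stimulated genes 0 were called and 18 lay above 0 (median 0.31, between 0.14 and 0.60 over the alternatives). STAT2 had -0.87 ± 0.15 and OAS3 0.78 ± 0.20, with limma adjusted p of 0.0525 and 0.0874.

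The list of metallothioneins, small metal-binding proteins, also held SLC30A1 (0.90 ± 0.39) and MTF1 (-0.06 ± 0.37), which are not metallothioneins. Of the list's 12 tested members 0 were called and 10 lay below 0, with a median of -0.35 and probes at a median of 55% GC. MT2A was at 3.65, 3.64 and 3.43 in S154A_DMSO, 4.53, 4.88 and 4.65 in S154A_CDCA, 3.40, 3.53 and 3.39 in S154D_DMSO, and 3.73, 3.77 and 4.02 in S154D_CDCA. Its S154A_CDCA arrays were the highest, but the difference of -0.71 ± 0.18 did not pass (limma adjusted p = 0.0871). The list's median was 0.11 with the GC trend removed and slide as a block, an alternative added after seeing the data. Of 32 nuclear receptors and coregulators 0 were called, with a median of -0.18. RARA, a retinoic acid receptor, had -1.54 ± 0.41 and SIRT1, a deacetylase, 0.50 ± 0.17. Without centring of the arrays the median of this list turned to 0.10, where that of all genes was 0.32.

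In the remaining lists 0 members were called. Of 31 genes that answer unfolded protein and related stress, 9 lay above 0 (median -0.13), with ATF3, a stress-induced factor, at 0.71 ± 0.18 and PHGDH, of serine synthesis, at -0.83 ± 0.24. Of 72 cytosolic ribosomal proteins 24 lay above 0 (median -0.08), and of 55 respiratory chain genes 33 did (median 0.11). Cholesterol synthesis and uptake had 16 of 26 above 0 (median 0.12) and fatty acid synthesis 6 of 18 (median -0.06), where FASN, fatty acid synthase, stood at -0.93. Xenobiotic metabolism had 12 of 20 above 0 (median 0.23), and ALDH3A1, an aldehyde dehydrogenase, was not called (limma adjusted p = 0.0732). No S154D_DMSO array was well above background for ALDH3A1, and with S154D it was at least 3.08-fold higher in CDCA than in DMSO. ALDH3A1 passed the filter on dim probes only through S154D_CDCA, the group where it was high, so this bound is not independent of the filter. Heat shock chaperones had 10 of 18 above 0, immediate early genes 13 of 22, NF-kB genes 10 of 16, NRF2 genes 9 of 21, protein kinase C isoforms 5 of 8 and housekeeping genes 5 of 14. Among these lists only xenobiotic metabolism kept the sign of its median under every alternative run.

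**Figure D5:**
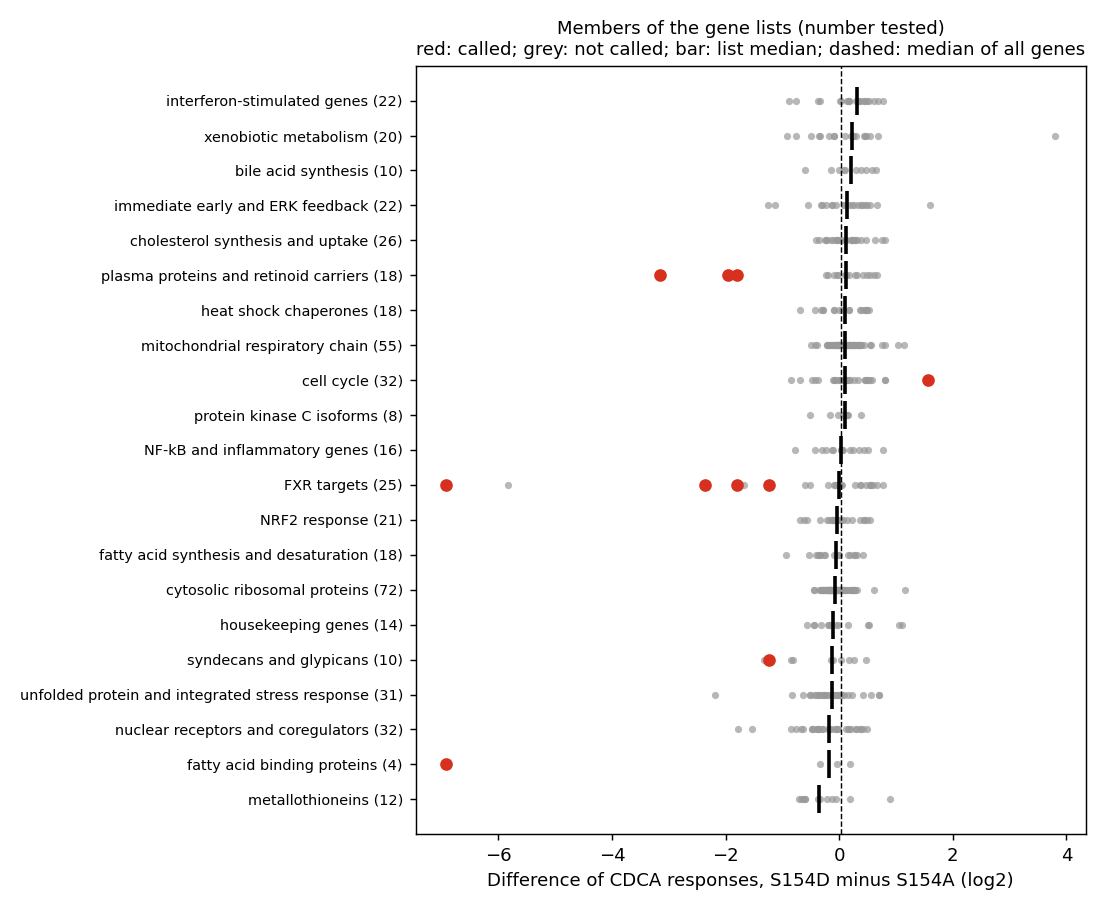
Difference of CDCA responses (S154D minus S154A, log2) of each tested member of 21 gene lists, with red for called and grey for not called members, a bar for the list median and a dashed line at 0.04, the median of all genes. Red points lie in the lists of FXR targets, plasma proteins, fatty acid binding proteins, syndecans and the cell cycle.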

How the data were processed

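Each deposited scanner file lists 45015 features with a processed intensity, from which the authors' software, Agilent Feature Extraction, had taken background and spatial trends, beside quality flags. The headers give 9.5.3.1 as the version of grid placement, and per the submitters' processing notes the software was version 12. Probe coordinates are those of hg17. The deposited series matrix held the same intensities, so no normalisation between arrays was seen. Here, outlier spots (66 to 196 an array) and control spots were left out, log2 values were centred on each array's 75th percentile, spots were averaged per probe, and a probe was kept where some group had it well above background on each of its 3 arrays. The brightest kept probe stood for a gene name, and 113 genes lacked a value on some array. With R 4.3.3 and version 1.17.8 of data.table, limma 3.58.1 fitted 1 mean per group to all 12 arrays, with 8 residual and 2.3 prior degrees of freedom. Tests were two-sided and adjusted by Benjamini-Hochberg over 20356 genes, and intervals are at 95%. Errors after ± are standard errors of the fit. Those of probes that are not the brightest, and of FETUB's and HRG's neighbours, come from fits of their own, with all kept probes tested one by one or each probe alone. "At least" folds raise the dim group, on each array, to the dimmest signal well above background. The script was tested on simulated data. Of the tested names, 10269 matched a green monkey RefSeq symbol (assembly mChlSab1.0.hap1), and 13 of 17 called symbols. The 3 arrays a group limit the precision.

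Genes named in the text are the called genes with a symbol, up to 15 a direction, the FXR genes listed and up to 4 members of each list by smallest p. Other list members, the unnamed probe, second probes and neighbours were chosen after their values were seen. The members and lists were chosen with earlier results of these data known. No set test was run. Of the 30 called genes, 4 are counted but not reported here one by one. Alternatives covered scaling, background correction, filter, probe choice, slide, replicate block, variance model, array weights, probe GC content and leaving out each array.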

Additional observations from a re-analysis of the deposited data

Results flagged for a closer look

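The response to CDCA differed between the mutants by limma's test of the difference itself for 30 genes, and that test picked them out, 26 of which are given one by one. The log2 differences, S154D minus S154A, among bile acid and plasma protein genes were -6.92 for FABP6, -2.36 for OSTalpha, -1.95 for RBP4 and -1.80 for FETUB. HRG had a fitted -3.15, which is not an exact size: it was well above background on 1 of 3 S154A_DMSO, 3 of 3 S154A_CDCA, 1 of 3 S154D_DMSO and 0 of 3 S154D_CDCA arrays, and with CDCA it was at least 9.78-fold lower with S154D. Others lower with S154D were LOC388242 (-2.68), MYOM2 (-1.62), ASS (-1.57), SAMD11 (-1.51), TMEM142B (-1.41), KCNJ12 (-1.27), SDC1 (-1.23), BAIAP2L2 (-1.20) and PPP1R1A (-1.07). So were A_32_P232437 (-3.02) and ENST00000294485 (-1.07). DLX3 had -1.89 on the probe used and 1.16 on its other probe, so its direction is uncertain. Higher with S154D were NCBP1 (0.91), HMG4L (1.21), FBXO5 (1.57), AL122040 (1.36), A_24_P170186 (1.62), A_24_P33429 (1.68), A_23_P117943 (1.74), A_24_P144254 (1.77) and AW015664 (fitted 3.31, with S154A_CDCA well above background on 0 of 3 arrays). Groups of 3 arrays were not tested for single outlying arrays.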

How the results depend on the processing

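For the difference of CDCA responses the count of called genes, 30 in the main analysis, was 118 with quantile normalisation, 2 with the series table without centring, 9 with median centring, 0 without the filter on dim probes (4181 at an unadjusted p under 0.05), 116 with probes above background on all 12 arrays, 59 with all kept probes one by one, 111 with trend and robust variance, 2363 with array weights and 10 with the probe GC trend removed. It was 0 with slide as a fixed block (3065 unadjusted), 15 with slide as a random block (correlation 0.14), 6 without slide 2, which leaves S154D_CDCA 1 array whose spread is assumed to be like the others', and 0 without slide 4 (5558 unadjusted). Added after seeing the data, the GC trend removed with slide as a block gave 0 (2561 unadjusted) and the dimmest kept probe 49. Leaving out 1 array gave from 0 to 67. All these counts are limma's. It stayed within 1.5 times the main count with normexp background correction (44), the mean of kept probes (38) and outlier spots kept (28). The cause of these changes was not tested.

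With the replicate number as a block, 6 genes were called. Same-numbered arrays deviated together, at a correlation over 0.1, in 9 of 18 pairs. The median correlation was 0.087 for the same number and -0.048 for other numbers. Some same-numbered arrays also shared a slide, so these values cannot decide whether the numbers pair the samples. Of 954 values of the 30 genes under alternatives, 952 kept their direction. The exceptions were DLX3 at 0.405 with normexp and 1.155 with its dimmest kept probe. All alternatives reused the arrays that chose the 30 genes, so the kept directions add no separate evidence. RBP4 was called in 19 of 31 alternatives tested, OSTalpha in 18 of 31, FABP6 in 16 of 30. These were among the most often called. Over all 30 genes, 331 of 924 such tests passed. HRG was called in 9 of 30, ENST00000294485 in 7 of 31 and AL122040 in 7 of 30. Without centring, the median of all genes rose to 0.32. Dim probes limit the lowest levels to bounds.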
